A study of Homo sapiens with 18 samples.

Results

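The nuclear genes of respiratory complex I were followed in 3 liver cancer cell lines with and without knockdown of ATAD2. Members were the genes whose symbol is NDUFA, NDUFB, NDUFC, NDUFS or NDUFV followed by a number, measured by a probe set that the platform annotation ties to exactly 1 gene. The rule found 32 genes among the 19775 genes measured, through 61 of the 54675 probe sets of the array. Of the members, 13 had 1 probe set and 19 had more, up to 5, and each was read from its probe set with the highest mean. NDUFC2, NDUFS5 and NDUFS8 are listed only on probe sets shared with another gene and stayed outside. NDUFA4 is annotated under its newer name COXFA4, as a complex IV subunit, and also stayed outside.

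Complex I is the entry point of electrons from NADH into the mitochondrial respiratory chain, and it pumps protons across the inner membrane while passing those electrons to ubiquinone. It is L-shaped. The N module at the tip of the matrix arm oxidises NADH, the Q module below it hands the electrons to ubiquinone, and the membrane arm holds the proton pumps, whose cores are encoded by mitochondrial DNA. Around the conserved core sit accessory subunits, encoded in the nucleus, that are needed for assembly and stability. Liver cells are rich in mitochondria, and liver cancer lines vary in how far they rely on respiration. By the place of their product, 8 members belong to the N module, 6 to the Q module, 7 to the proximal membrane arm and 11, all of them NDUFB genes, to the distal membrane arm.

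The 18 arrays comprised 3 control siRNA and 3 ATAD2 siRNA arrays of each of the lines labelled Hep3B, SNU449 and PLC (PLC/PRF/5), all grown in RPMI and transfected with a lipid reagent. ATAD2 is a bromodomain protein of chromatin that is often raised in tumours. The labels call the arrays of a group biological replicates and the treated samples knockouts, whereas the design describes siRNA. No time after transfection, siRNA sequence or number of siRNAs is given in the sources used here. Signals are log2 values, and differences are ATAD2 siRNA minus control siRNA unless stated. A member was called when its limma p-value was under 0.05 after Benjamini-Hochberg adjustment over the 19775 genes.

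ATAD2 itself was lower on every knockdown array. It lay between 8.93 and 9.02 on control and between 4.70 and 5.65 on knockdown arrays labelled Hep3B, between 9.14 and 9.32 against 6.62 and 6.96 under SNU449, and between 9.67 and 9.78 against 7.05 and 7.17 under PLC. The markers of the lines went against their labels. RB1, a gene that Hep3B cells are known to have lost, read 4.27 to 4.75 on arrays labelled SNU449 and 9.15 to 9.51 on those labelled Hep3B. Albumin read 13.75 to 13.78 under SNU449 and 2.85 to 3.53 under Hep3B, a line known for making liver plasma proteins. The names below are therefore those of the labels only. The 6 leukocyte and endothelial markers measured had a summed log2 level of 26.88 to 29.78 over all arrays. PTPRC, a defining marker of leukocytes, read at most 3.705, while PECAM1, of the same list, read 6.068 to 6.946. One measure of RNA quality, the 5′ minus 3′ signal of ACTB and GAPDH, set 3 arrays apart. It was -1.15 and -1.09 on PLC siRNA arrays 1 and 3, against -0.455 on siRNA array 2 and -0.595 to -0.436 on the PLC controls. It was -0.422 on Hep3B siRNA array 2, against -0.791 to -0.649 on the other arrays of that label.

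Under the Hep3B label, 4 members fell and none rose after ATAD2 knockdown, and all 4 encode subunits of the distal membrane arm. They were NDUFB2, NDUFB7, NDUFB10 and NDUFB6. Of all genes, 7.74% were called lower and 8.68% higher in this comparison, so that 4 of 32 members lower is not far from the background. The falls were small, from 0.17 to 0.41 on the log2 scale. None of the 8 N module, 6 Q module and 7 proximal arm members passed the test. With the values as deposited, 1 member was higher and 2 were lower, and with each array centred on its median 1 was higher and 1 lower. The member that rose under those scalings was NDUFA5, a Q module accessory subunit, with a change of 0.33 as deposited (adjusted p = 0.0176) against 0.28 ± 0.10 (SE, adjusted p = 0.0714) in limma here. Markers of other cell types also moved under this label. Of 6 leukocyte and endothelial markers CD14 was higher by 0.49 (adjusted p = 0.026) and PECAM1 lower by 0.25 (log2 change -0.2547, adjusted p = 0.0278, a call lost under both other scalings), and their summed log2 level lay at 29.31 to 29.78 on control and 28.78 to 29.68 on knockdown arrays. Of 8 mesenchymal markers only SPARC was called, at 0.828 (adjusted p = 1.32e-07), with summed levels of 82.7 to 82.83 and 83.11 to 83.86. Of 8 hepatocyte markers only FGB was called, at 0.388 (adjusted p = 0.000338), with summed levels of 44.52 to 45.94 and 44.9 to 46.12. Their part in the result was not tested.

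**Figure D1:**
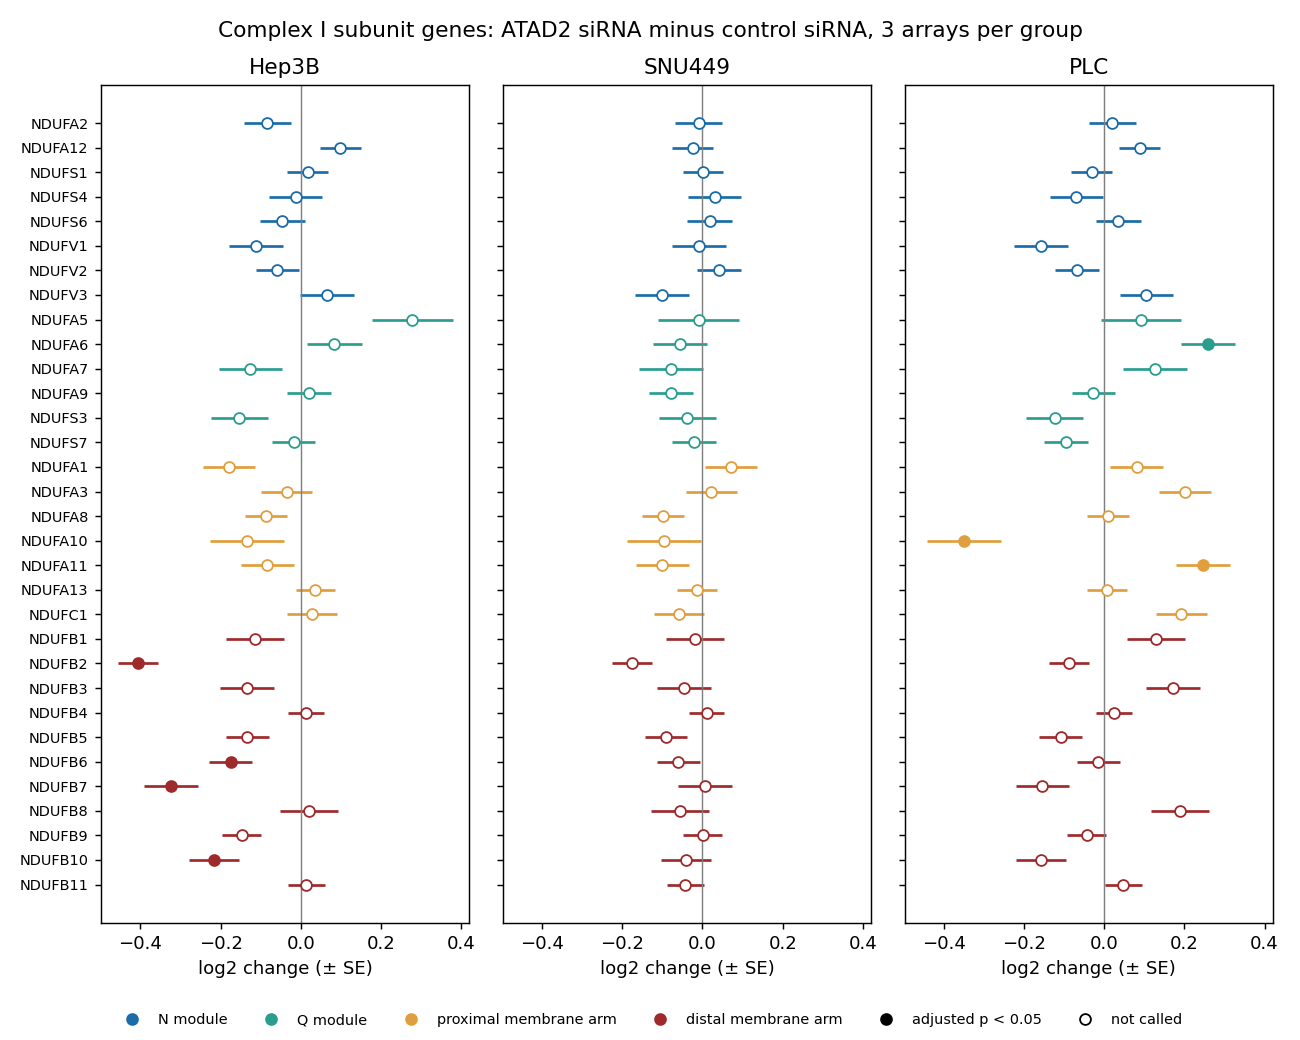
Log2 change (ATAD2 siRNA minus control siRNA, limma estimate with its SE, 3 arrays a group) of the 32 complex I genes in the lines labelled Hep3B, SNU449 and PLC, coloured by the place of the subunit. Filled points passed an adjusted p of 0.05. The 4 filled Hep3B points are all distal arm genes (NDUFB6 and NDUFB10 lose the call as deposited and centred, NDUFB7 when centred), no SNU449 point is filled, and the 3 filled PLC points are NDUFA6, NDUFA10 and NDUFA11 (NDUFA6 and NDUFA11 lose the call under both scalings).

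The letters of the promoters of these 4 genes are shown because they are the members that fell, together with that of NDUFA6, which was called higher under the PLC label. Each line gives the 200 bases before the RefSeq start on GRCh38.p14, 5′ to 3′ on the strand of the gene. Capitals mark the letters GCATGCGC (bound by NRF1), CCGGAAG (bound by ETS factors such as GABPA) and GGGCGG (bound by SP1), each on either strand.
NDUFB2, chr7:140696508-140696707, plus strand: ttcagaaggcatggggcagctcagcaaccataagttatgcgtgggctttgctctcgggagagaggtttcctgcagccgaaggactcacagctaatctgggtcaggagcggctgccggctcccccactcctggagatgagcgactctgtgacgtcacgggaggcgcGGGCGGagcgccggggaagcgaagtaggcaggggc
NDUFB7, chr19:14572067-14572266, minus strand: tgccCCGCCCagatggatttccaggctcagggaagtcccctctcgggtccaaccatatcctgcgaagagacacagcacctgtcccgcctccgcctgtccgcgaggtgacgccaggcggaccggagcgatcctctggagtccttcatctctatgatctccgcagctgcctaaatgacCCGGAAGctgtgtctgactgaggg
NDUFB10, chr16:1959338-1959537, plus strand: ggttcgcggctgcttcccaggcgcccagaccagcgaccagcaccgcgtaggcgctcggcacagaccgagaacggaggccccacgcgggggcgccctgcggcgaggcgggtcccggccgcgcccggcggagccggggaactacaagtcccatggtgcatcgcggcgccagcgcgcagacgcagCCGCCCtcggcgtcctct
NDUFB6, chr9:32573160-32573359, minus strand: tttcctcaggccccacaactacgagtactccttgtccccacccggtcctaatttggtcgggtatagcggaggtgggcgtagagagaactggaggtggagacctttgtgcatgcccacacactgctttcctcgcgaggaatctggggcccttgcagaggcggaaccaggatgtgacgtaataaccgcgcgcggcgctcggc
NDUFA6, chr22:42090773-42090972, minus strand: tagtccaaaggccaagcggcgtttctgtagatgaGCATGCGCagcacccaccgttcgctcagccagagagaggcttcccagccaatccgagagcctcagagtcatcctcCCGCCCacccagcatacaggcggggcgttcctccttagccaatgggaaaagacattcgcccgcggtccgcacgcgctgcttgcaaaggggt

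The NDUFB2, NDUFB7 and NDUFB10 stretches each hold 1 SP1 match, and that of NDUFB7 also holds an ETS match. The NDUFB6 stretch holds none of the letters searched. The NDUFA6 stretch holds an NRF1 and an SP1 match. The members that fell include genes with and without these letters.

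NDUFB2 encodes a small accessory protein of the distal arm and showed the largest fall. On the Hep3B control arrays it read 10.76, 10.78 and 10.73, and on the knockdown arrays 10.40, 10.32 and 10.33. The groups were well separated, and the change was -0.41 ± 0.05 (SE, adjusted p = 2.41e-05). In a limma fit over all probe sets, a second NDUFB2 probe set changed by -0.465 (adjusted p = 0.000342). The third, at a dim mean signal of 5.185, changed by -0.078 (adjusted p = 0.723). The call for NDUFB2 held without each of the 18 arrays in turn and under both other scalings, at -0.37 as deposited and -0.33 centred.

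NDUFB7 encodes a protein of the intermembrane space face, held by disulphide bonds. Its control signals were 8.98, 9.07 and 9.03 and its knockdown signals 8.90, 8.59 and 8.62. Arrays 2 and 3 lay far below the controls and array 1 just below them, for a change of -0.32 ± 0.07 (SE, adjusted p = 0.00272). The other NDUFB7 probe set, at a mean signal of 5.327, had a value of 0.195, the opposite way (adjusted p = 0.54). Centred on array medians, the NDUFB7 change was -0.21 with an adjusted p of 0.0666.

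NDUFB10, a further disulphide-bonded subunit of the intermembrane space side, read 9.84, 9.87 and 9.87 on control and 9.72, 9.68 and 9.54 on knockdown arrays. The change was -0.22 ± 0.06 (SE, adjusted p = 0.0257), and a second NDUFB10 probe set gave -0.212 (adjusted p = 0.0369 over all probe sets). NDUFB6, a membrane-spanning accessory subunit, read 11.11, 11.14 and 11.16 on control and 10.97, 10.90 and 11.02 on knockdown arrays. The change was -0.17 ± 0.05 (SE, adjusted p = 0.0343), and its other probe set had a value of 0.13, the opposite way, at a mean signal of 3.047. Adjusted over all probe sets instead of genes, the p-value of NDUFB6 was 0.0608. The NDUFB10 call was lost without any 1 of the 3 controls or without siRNA array 3, with adjusted p-values of 0.0535 to 0.121. The NDUFB6 call was lost without any 1 of the controls or without siRNA array 1 or 2, with adjusted p-values of 0.0592 to 0.112. The Hep3B count became 2 without control array 1, 2 or 3, beside 2355 to 2692 of all genes, and 6 without PLC siRNA array 2, beside 3731. Next in line was NDUFB9, a distal arm protein of the LYR family, at -0.15 ± 0.05 (SE) and an adjusted p of 0.0501.

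**Figure D2:**
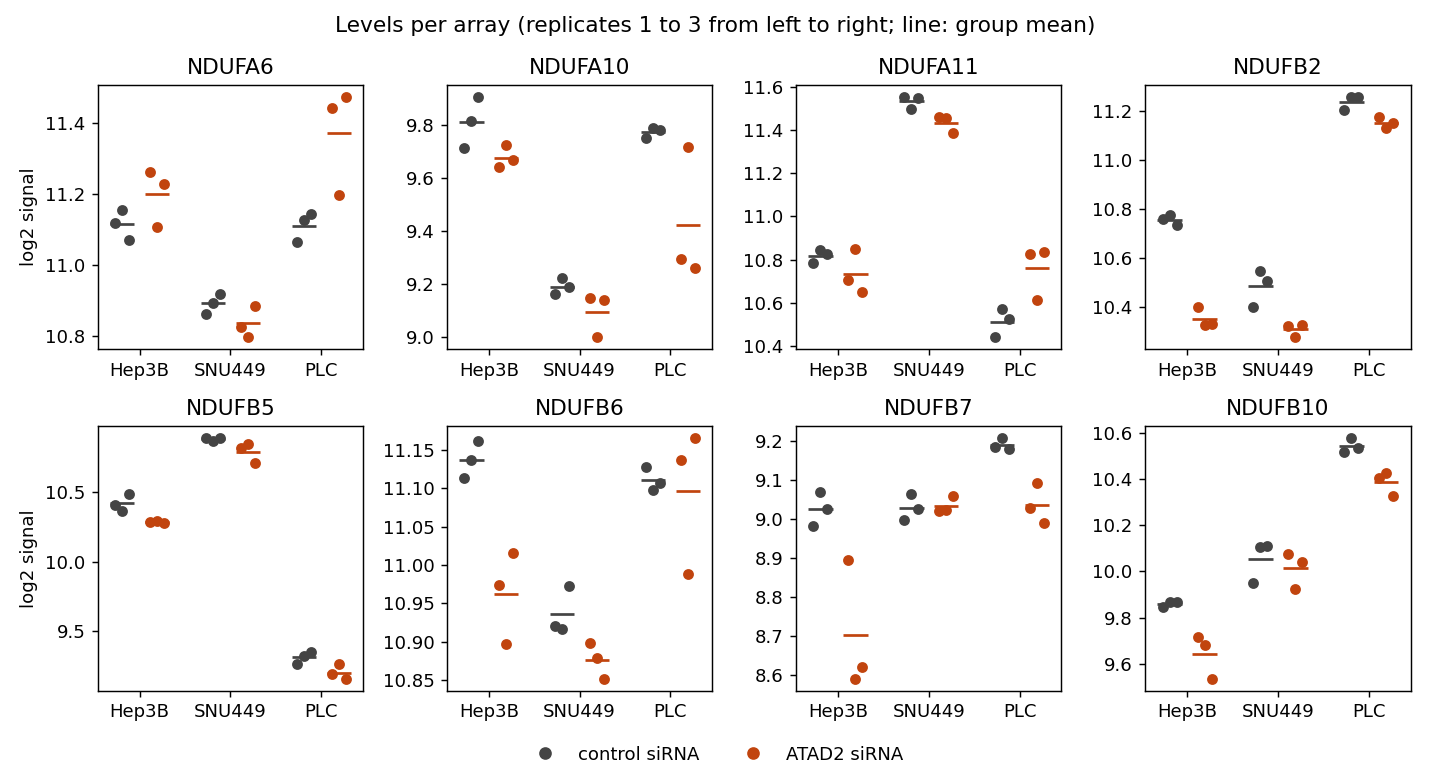
Log2 signal on each array of the 8 members that passed the test in any knockdown comparison, by label and siRNA (points are arrays, lines are group means of 3). NDUFB2 and NDUFB5 lie lower on all knockdown arrays in each line (the share of all genes that do so was not counted), and the PLC changes of NDUFA6, NDUFA10 and NDUFA11 are carried by siRNA arrays 1 and 3.

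Seen as a list, the members shifted by little. Their median change under the Hep3B label was -0.0707, beside -0.0188 for all genes, and 21 of 32 members were below 0, beside 55.2% of all genes. The distal arm had a median of -0.133, with 8 of 11 members below 0, and it stayed below 0 under the other scalings, at -0.101 as deposited and -0.0666 centred. The proximal arm median was -0.0831 (0.0201 when centred), the N module median -0.0292 (0.0265 as deposited and 0.0613 centred) and the Q module median 0.00119. The median of all members was -0.0152 as deposited and turned to 0.0195 when centred. Knockdown and control arrays did not overlap for 11 members lower and 1 higher, beside 17.3% and 15.5% of all genes. An unadjusted p under 0.05 was reached by 9 members, beside 27.4% of genes. On siRNA array 2, which had the higher 5′ minus 3′ signal, 8 members lay at least 0.2 below the control mean, against 1 and 4 on arrays 1 and 3. The share of all genes that lay as far below was not counted. With the 5′ minus 3′ signal as a covariate 7 members were called, 6 of them lower, beside 3595 of all genes called, and NDUFB2 changed by -0.402.

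Under the SNU449 label, no member passed the test. The background was also low there, with 0.111% of genes called lower and 0.147% higher by limma. NDUFB2 alone had an unadjusted p under 0.05, beside 10.3% of all genes. It read 10.40, 10.55 and 10.51 on control and 10.32, 10.27 and 10.33 on knockdown arrays. All 3 knockdown values lay below all controls, and the change was -0.18 ± 0.05 (SE, adjusted p = 0.169). Groups did not overlap for 11 members lower and 0 higher, beside 13.2% and 8.76% of all genes. Over the 32 members the 95% intervals of the change reached no lower than -0.292 (NDUFA10) and no higher than 0.210 (NDUFA1). The median was -0.0312, beside -0.0159 for all genes, and turned to 0.018 as deposited and 0.0578 centred.

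Under the PLC label, NDUFA6 and NDUFA11 were called higher and NDUFA10 lower, with a background of 2.34% of genes higher and 2.24% lower. NDUFA6 is a Q module protein of the LYR family that anchors an acyl carrier protein. It read 11.06, 11.13 and 11.14 on control arrays and 11.44, 11.20 and 11.47 on knockdown arrays, a change of 0.26 ± 0.07 (SE, adjusted p = 0.0409). NDUFA11, a membrane arm subunit near the contact with complex III in supercomplexes, read 10.44, 10.57 and 10.52 against 10.83, 10.62 and 10.84. Its change was 0.25 ± 0.07 (SE, adjusted p = 0.0461). NDUFA10, a membrane arm subunit related to nucleoside kinases, read 9.75, 9.79 and 9.78 against 9.30, 9.72 and 9.26. Its change was -0.35 ± 0.09 (SE, adjusted p = 0.0429).

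Of 8 hepatocyte markers, 4 were lower under PLC after knockdown, their summed log2 level lying at 79.94 to 80.2 on control and 76.56 to 77.31 on knockdown arrays, and their part in the result was not tested. In each of the 3 genes, knockdown array 2 lay next to the controls and arrays 1 and 3 lay apart. Those are the arrays with the low 5′ minus 3′ signal given above. Over the whole list, 9 and 11 of 32 members deviated by at least 0.2 from the control mean on arrays 1 and 3, and 0 on array 2. The share of all genes that deviated as far was not counted. The median SD over the PLC siRNA arrays was 0.118 for all genes and 0.066 for the members. ATAD2 was knocked down on all 3. With the 5′ minus 3′ signal as a covariate, a fit chosen after seeing the data, no PLC member was called, and the changes were 0.12 for NDUFA6, 0.20 for NDUFA11 and -0.15 for NDUFA10. Their adjusted p-values were then 0.41, 0.277 and 0.456. Without siRNA array 2, 10 members were called, 8 of them higher. Calls over all genes also rose in that fit, as given at the end of the text, so this count is not particular to the members. The calls were lost without siRNA array 1 or 3, with adjusted p-values of 0.137 to 0.158, and leaving out any 1 of 16 of the 18 arrays left 0 or 1 call. As deposited and centred on medians, NDUFA10 was the 1 member called, and 0 were higher.

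No other probe set of these 3 genes was called in the limma fit over all probe sets. A second NDUFA11 probe set of similar brightness, with a mean of 10.33, changed by -0.0689 (adjusted p = 0.654). The other NDUFA6 probe set changed by 0.0956 (adjusted p = 0.393). The 4 further NDUFA10 probe sets had changes between -0.544 and 0.136, with mean signals of at most 5.785. In that fit the probe sets used here also missed the threshold, with adjusted p-values of 0.0529 for NDUFA6, 0.0594 for NDUFA11 and 0.0516 for NDUFA10. The PLC median over the members was 0.0147, beside 0.012 for all genes, and turned to -0.0498 as deposited and -0.0733 centred. Groups did not overlap for 6 members lower and 4 higher, beside 9.11% and 10.8% of genes. An unadjusted p under 0.05 was reached by 10 members, beside 21% of genes.

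Averaged over the lines, 5 members were lower and none higher, with a background of 6.24% of genes lower and 6.8% higher. NDUFB2 changed by -0.22 ± 0.03 (SE, adjusted p = 7.77e-05), NDUFB7 by -0.16 ± 0.04 (SE), NDUFB10 by -0.14 ± 0.04 (SE), NDUFB5 by -0.11 ± 0.03 (SE) and NDUFA10 by -0.19 ± 0.05 (SE). The adjusted p-values of the latter 4 lay between 0.013 and 0.0252. As deposited 2 members were called and centred 1. The count was 3 without Hep3B control 3 and 10 without PLC siRNA array 2. Calls over all genes in these other fits are not given here, so these counts cannot be read as particular to the members. NDUFB2 and NDUFB5 were the 2 members whose knockdown arrays lay below the controls without overlap in each line, and no member lay above in each. The share of all genes that did the same in each line was not counted.

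NDUFB2 under PLC read 11.20, 11.26 and 11.25 on control and 11.17, 11.13 and 11.15 on knockdown arrays, a change of -0.087 ± 0.05 (SE, adjusted p = 0.342). NDUFB5, a membrane-spanning distal arm subunit, read 10.41, 10.37 and 10.48 against 10.28, 10.30 and 10.28 under Hep3B. It read 10.89, 10.87 and 10.89 against 10.82, 10.84 and 10.71 under SNU449, and 9.26, 9.32 and 9.35 against 9.19, 9.26 and 9.16 under PLC. The nearest PLC arrays of NDUFB5 almost touched.

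The knockdown change itself differed between lines for 2 members by the F test over the interaction contrasts, beside 9.18% of all genes. They were NDUFB2 (adjusted p = 0.0189) and NDUFA11 (adjusted p = 0.037). NDUFB2 fell further under Hep3B than under PLC, by 0.32 ± 0.07 (SE, adjusted p = 0.00915), while its difference between Hep3B and SNU449, 0.23 ± 0.07 (SE), had an adjusted p of 0.0669. NDUFA11 changed by -0.083 under Hep3B, -0.10 under SNU449 and 0.25 under PLC. Both lost the interaction call as deposited and centred, with adjusted p-values of 0.102 and 0.171 for NDUFB2 and 0.112 and 0.314 for NDUFA11. The count was 10 without PLC siRNA array 2, 0 without Hep3B control 2, and 1 or 2 without any other array. The share of all genes called in those fits is not given here, so these counts cannot be read as particular to the members.

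**Figure D3:**
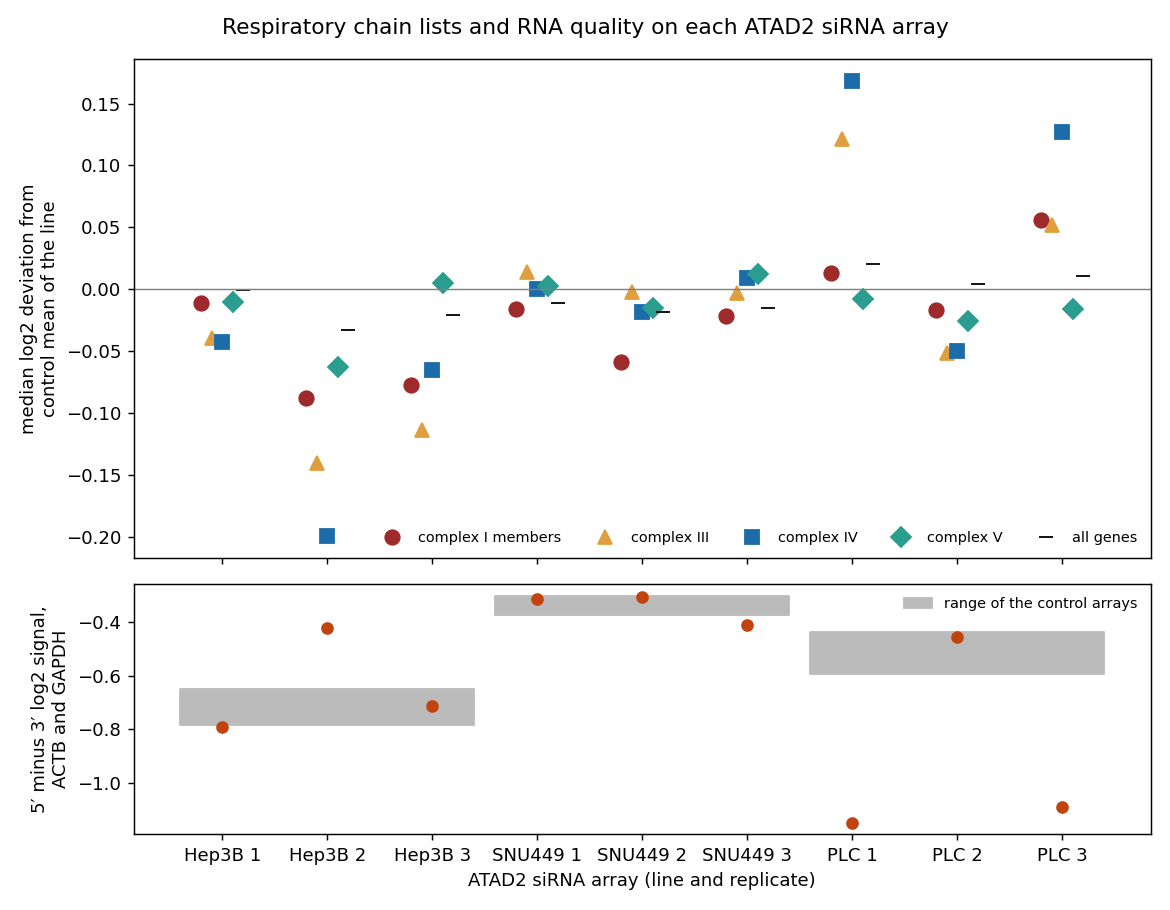
Upper panel, median log2 deviation of the 32 complex I genes, of complexes III, IV and V and of all genes on each ATAD2 siRNA array from the control mean of its line. Lower panel, 5′ minus 3′ log2 signal of ACTB and GAPDH on the same arrays, with the range of the line's control arrays in grey. The complex I median is lowest on Hep3B array 2, at -0.0874, and highest on PLC array 3, at 0.0559, while the lists for complexes III and IV move further on Hep3B array 2 and PLC array 1. Medians depend on the scaling: centred, the complex I change is above 0 under Hep3B and SNU449 and below 0 under PLC.

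The other respiratory chain genes showed changes of the same small size. Under Hep3B the complex I assembly factors, which build the enzyme but are absent from the finished complex, had 4 of 18 higher and 1 lower, beside 8.68% and 7.74% of all genes. TMEM70 rose by 0.28 and NDUFAF7, a methyltransferase, by 0.26, while FOXRED1 fell by 0.20, and the list had 0 lower under both other scalings. Their median was 0.0206 and that of the subunits -0.0707. Of the mitochondrially encoded complex I genes, 3 of 7 were measured and ND6 was lower by 0.49 ± 0.13 (SE). ND6 was no longer called when arrays were centred. Complex II had 1 of 3 measured members lower (SDHC, -0.34), complex III 1 of 7 (UQCRC2, -0.14), complex IV 2 of 11 (COX7B, -0.24, and COX5B, -0.19) and complex V 1 of 15 (ATP5PO, -0.17). None of these 4 complexes had a member higher under Hep3B. As deposited, complexes III and V had 0 members called and complex IV had 1.

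Of 10 regulators of mitochondrial biogenesis, 3 were lower under Hep3B, beside the 7.74% of all genes given above, among them NRF1 (-0.26, adjusted p = 0.0182) and GABPA (-0.22, adjusted p = 0.0234). Both are transcription factors known to bind promoters of respiratory genes. As deposited none of the 10 was lower, and centred 1 was higher. Under SNU449 no gene of these lists was called. Under PLC they were UQCRC1, a core subunit of complex III, at -0.28 and COX7A2L, a factor joining complexes III and IV, at 0.19 (adjusted p = 0.0363). COX7A2L lost the call as deposited (0.114, adjusted p = 0.243) and centred (0.0905, adjusted p = 0.464), where UQCRC1 kept it. Without PLC siRNA array 1 or 3, the arrays with the low 5′ minus 3′ signal, the adjusted p in limma was 0.108 and 0.109 for UQCRC1 and 0.106 and 0.112 for COX7A2L. With that signal as a covariate neither was called (adjusted p = 0.318 and 0.239). COXFA4, the former NDUFA4, changed by -0.043, -0.025 and 0.04 in Hep3B, SNU449 and PLC, with none called.

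Between the lines, complex I genes differed far more than after knockdown. On control arrays, 16 members were higher and 12 lower under SNU449 than under Hep3B, beside 32.7% and 33.7% of genes. For PLC against Hep3B, 16 were higher and 13 lower, beside 34.3% and 36.3%. For SNU449 against PLC, 13 were higher and 14 lower, beside 36.4% and 35.6%. Other probe sets did not always go the same way. Between SNU449 and Hep3B, 17 called members had further probe sets. Of these, 7 had at least 1 called the same way and 5 at least 1 called the opposite way. The 5 were NDUFA7, NDUFA10, NDUFB1, NDUFS1 and NDUFS4. For PLC against Hep3B the numbers were 10 and 1 of 16, and for SNU449 against PLC 9 and 4 of 16. Every member differed in at least 2 of the 3 pairs, as did 80.7% of all genes, and 20 differed in all, beside 40.1% of genes. The members also varied less between replicates, which makes a difference of equal size easier to call. Their median SD on control arrays was 0.033 (Hep3B), 0.038 (SNU449) and 0.034 (PLC), beside 0.070, 0.073 and 0.072 for all genes. The median distance between the highest and lowest line was 0.679 for the members and 0.681 for all genes, and 7 members reached a distance of at least 1, beside 32.6% of genes. Hep3B was highest for 10 members, SNU449 for 12 and PLC for 10, beside 33.6%, 33.4% and 33% of all genes, but this order rests on the scaling: with arrays centred on their median PLC was highest for 31 members and for 67.5% of genes.

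These directions depend on how arrays are scaled wherever PLC is compared, since the deposited PLC values have a lower median. As deposited, the median of all genes was -0.625 for PLC against Hep3B, beside -0.0246 here, and 0.762 for SNU449 against PLC, beside 0.0133. Centred, these medians were 0.624 and -0.695. As deposited, PLC exceeded Hep3B for 18 members and fell below it for 8, while SNU449 exceeded PLC for 12 and fell below it for 16. With arrays centred on their median, PLC exceeded Hep3B for 32 members, and SNU449 fell below PLC for 30 and exceeded it for 0. The comparison of SNU449 with Hep3B gave 17 higher and 11 lower as deposited, and 11 and 13 centred.

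**Figure D4:**
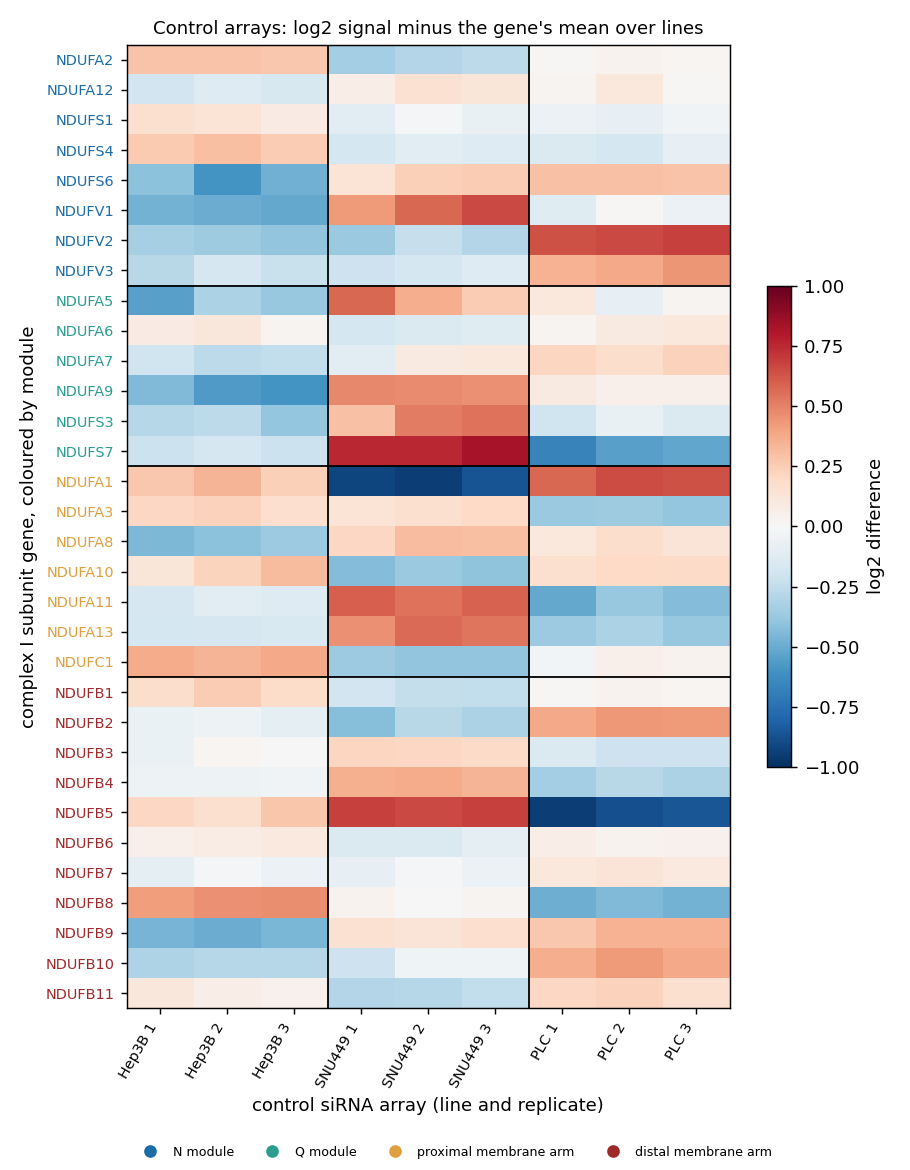
Log2 signal of each complex I gene on the 9 control arrays minus its mean over the 3 lines, grouped by the place of the subunit. Replicates of a line look alike. On this scale NDUFV1 is highest in SNU449 and NDUFV2 in PLC, but differences against PLC shift with the scaling: when arrays are centred, PLC is highest for 31 of the 32 genes, NDUFV1 included. The NDUFV1 probe set that is not drawn was called lower in SNU449 than in PLC.

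In the N module, the flavoprotein NDUFV1, which oxidises NADH, and its partner NDUFV2, an iron-sulphur protein, were highest in different lines here, though both were highest under PLC when arrays were centred. NDUFV1 read 9.81, 9.78 and 9.77 under Hep3B, 10.70, 10.85 and 10.94 under SNU449 and 10.16, 10.29 and 10.22 under PLC. The lines did not overlap, and SNU449 exceeded Hep3B by 1.05 ± 0.07 (SE, adjusted p = 3.24e-10) and by 0.874 when centred. For NDUFV1, SNU449 minus PLC was 0.465 as deposited and turned to -0.992 when centred. The other NDUFV1 probe set was called the opposite way for that pair, lower under SNU449 than under PLC. NDUFV2 read 10.22, 10.19 and 10.15 under Hep3B, 10.17, 10.32 and 10.25 under SNU449 and 11.18, 11.21 and 11.24 under PLC. PLC exceeded Hep3B by 1.02 ± 0.05 (SE, adjusted p = 2.62e-11), while SNU449 and Hep3B overlapped (0.063, adjusted p = 0.324). NDUFS6, a zinc-binding subunit placed late in assembly, read 9.67, 9.48 and 9.60 under Hep3B, 10.22, 10.32 and 10.33 under SNU449 and 10.37, 10.37 and 10.36 under PLC. It was lower under Hep3B, by 0.79 ± 0.06 (SE) against PLC, and SNU449 and PLC differed by -0.08 (adjusted p = 0.212), which was -1.67 when centred.

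In the Q module, 5 of 6 members were higher under SNU449 than under Hep3B (4 when centred), with a list median of 0.783. For 1 of the 5, NDUFA7, the other probe set was called the opposite way. NDUFS7, a core subunit that carries the last iron-sulphur cluster before ubiquinone, read 9.33, 9.37 and 9.33 under Hep3B, 10.30, 10.30 and 10.37 under SNU449 and 8.88, 9.003 and 9.02 under PLC. SNU449 exceeded Hep3B by 0.98 ± 0.05 (SE) and PLC by 1.35 ± 0.05 (SE), the latter turning to -0.136 when arrays were centred. NDUFA9, an accessory subunit that holds a nucleotide cofactor, read 9.35, 9.22 and 9.19 under Hep3B, 10.27, 10.26 and 10.25 under SNU449 and 9.88, 9.84 and 9.84 under PLC. SNU449 exceeded Hep3B by 1.004 ± 0.05 (SE, adjusted p = 2.64e-11). PLC lay between them here and as deposited, but for NDUFA9 SNU449 minus PLC turned to -1.15 when centred.

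In the proximal membrane arm, NDUFA1, a small single-pass subunit encoded on the X chromosome, was lowest under SNU449. It read 11.35, 11.41 and 11.31 under Hep3B, 10.15, 10.14 and 10.21 under SNU449 and 11.65, 11.73 and 11.71 under PLC. SNU449 was lower than Hep3B by 1.19 on the log2 scale (SE 0.0654, adjusted p = 3.27e-11), and the difference from PLC was -1.53 ± 0.07 (SE). NDUFC1, a further small membrane subunit, read 11.54, 11.50 and 11.55 under Hep3B, 10.80, 10.77 and 10.77 under SNU449 and 11.14, 11.22 and 11.20 under PLC. SNU449 differed from Hep3B by -0.75 ± 0.06 (SE) for NDUFC1.

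NDUFA10 differed by -0.62 ± 0.09 (SE) between SNU449 and Hep3B, with control signals of 9.72, 9.82 and 9.91 under Hep3B and 9.16, 9.22 and 9.19 under SNU449. A dim NDUFA10 probe set gave 0.376 for that pair (adjusted p = 0.000642), so that the probe sets disagreed. NDUFA11 read 10.78, 10.84 and 10.83 under Hep3B and 11.55, 11.50 and 11.55 under SNU449. SNU449 exceeded PLC by 1.02 ± 0.07 (SE) for NDUFA11, which turned to -0.601 when arrays were centred. NDUFA3, a single-pass subunit, read 10.41, 10.44 and 10.38 under Hep3B, 10.35, 10.37 and 10.41 under SNU449 and 9.84, 9.86 and 9.82 under PLC. PLC differed from Hep3B by -0.57 ± 0.06 (SE) for NDUFA3, which turned to 0.823 when centred, and Hep3B and SNU449 overlapped (adjusted p = 0.669).

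In the distal arm, NDUFB5 had the widest range of any member here, with the control signals given above, and the narrowest when arrays were centred. PLC lay below Hep3B by -1.11 ± 0.05 (SE), which turned to 0.238 when centred, and SNU449 exceeded PLC by 1.57 ± 0.05 (SE), which was 0.0265 (adjusted p = 0.716) when centred. NDUFB8, a subunit often used as a protein marker of assembled complex I, read 11.36, 11.40 and 11.41 under Hep3B, 10.98, 10.95 and 10.97 under SNU449 and 10.45, 10.50 and 10.47 under PLC. PLC differed from Hep3B by -0.91 ± 0.07 (SE) for NDUFB8, which turned to 0.488 when centred. NDUFB9 read 10.81, 10.77 and 10.81 under Hep3B, 11.42, 11.40 and 11.44 under SNU449 and 11.54, 11.61 and 11.61 under PLC. PLC exceeded Hep3B by 0.79 ± 0.05 (SE) for NDUFB9. NDUFB2 was lower under SNU449 than under PLC by 0.75 on the log2 scale (difference -0.753, SE 0.0497).

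Promoter letters were not used to choose the members. Of the 32 members, 30 had a RefSeq promoter of 300 bases, 250 before and 50 after the start, and 37 promoters were read in all. The YY1 letters AAGATGGC, on either strand, stood in 7 of 37 (18.9%), beside 2.89% of all 35116 promoters. The NRF1 letters GCATGCGC stood in 6 (16.2%), beside 3.05%. The SP1 letters GGGCGG stood in 26 (70.3%), beside 44.95%, and the ETS letters CCGGAAG in 5 (13.5%), beside 10.26%. The letters TCAAGGTCA, bound by oestrogen-related receptors, stood in 0 members and in 0.35% of all promoters. Matches overlapped in 3 members: NRF1 matches on both strands in NDUFA8 and NDUFB4, and an SP1 with an ETS match in NDUFS3.

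All 7 YY1 matches of the members lay 11 to 26 bases into the transcript and on the strand of the gene, beside 41.6% of the 1056 matches of all promoters after the start on that strand. They belonged to NDUFA3, NDUFA6, NDUFA7, NDUFA9, NDUFB8, NDUFS4 and NDUFS7. For NDUFA6 and NDUFS7 the match is shown in capitals with 6 bases on each side, as it shows the like place of the letters in genes of the same module.
NDUFA6, chr22:42090734-42090753, minus strand: tttggcAAGATGGCggggag
NDUFS7, chr19:1383918-1383937, plus strand: gaggccAAGATGGCggtgct

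On control arrays NDUFA6 was lower under SNU449 than under Hep3B (difference -0.22), while NDUFS7 was higher (0.98). A match is a run of letters and not a measured binding site. The letters AAGATGGC also hold ATG, the letters of a start codon. Whether these matches are the start codons of the genes was not tested.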

How the data were processed

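The authors deposited 1 table of log2 values (1.33 to 13.97) for 54675 probe sets on 18 arrays. No source used here states how it was normalized; the submitters' processing notes name limma. Array medians as deposited were 4.14 to 4.21 under PLC and 5.36 to 5.62 under the other labels. Here all arrays were quantile normalized, symbols were updated through RefSeq (GRCh38.p14), and each of 19775 genes was read from its highest-mean probe set. The 6 group means were fitted in limma 3.58.1 (R 4.3.3), with 12 residual and 4.01 prior degrees of freedom, and tests had 2 sides. With 3 arrays a group, 75%, 68% and 75% of simulated log2 changes of 0.5 were recovered under Hep3B, SNU449 and PLC. The simulation used 1 spread per gene for all lines, so these shares do not compare the lines. It also changed far fewer genes than were called under Hep3B and PLC, and more than under SNU449. Recovery after adjustment depends on that number, so the shares are not recovery rates for these comparisons. The largest member change after knockdown was smaller than 0.5, at -0.406. Replicate numbers were not used to pair arrays in the main fit (same-number correlations -0.125 to 0.0928), and a fit with them as a block is given below. Members, lists and tests were chosen with earlier results of these data known. Values on every array are given for members called after knockdown or in the interaction test, and for the 3 largest called differences in each direction between control lines. Of each other list, up to 2 genes per direction and line are named. P-values measure the spread between these arrays.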

Additional observations from a re-analysis of the deposited data

Results flagged for a closer look

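The change of NDUFB2 after ATAD2 knockdown differed between the lines (interaction adjusted p = 0.0189 in limma), from -0.41 under Hep3B to -0.18 under SNU449 and -0.087 under PLC. NDUFB2 was lower on 9 of 9 knockdown arrays than on any control array of its line. The share of all genes for which this holds was not counted. The interaction p rose to 0.0559 without Hep3B control 2, to 0.102 as deposited and to 0.171 when centred. The change of NDUFA11 also differed (interaction adjusted p = 0.037), with 0.25 under PLC against -0.083 and -0.10. NDUFA11 lost that call without 15 of the 18 arrays taken singly, and its adjusted p ranged from 0.00406 to 0.761 over all alternatives.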

How the results depend on the processing

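Limits first: 3 arrays a group, 1 probe set a gene, an unstated deposit normalization and labels that go against their markers. Over the 11 counts and medians, 249 of 333 alternative values stayed close to the main value. Counts were judged by their ratio to the main count. Medians were judged by whether they moved less than the SD over the 3 knockdown arrays of the line. Direction was not judged: the PLC median, 0.0147, counts as kept at -0.00214 without 1 array.

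Members called under Hep3B, 4 in the main setting, were 2 with median centring, the replicate block, each line fitted by itself and a threshold of 0.01. They were 7 without the dimmest 30% of genes, with array weights or with the 5′ minus 3′ covariate, 8 without the dimmest 50% or with an intensity trend, and 0 at an absolute change of 0.5. Calls over all genes rose as well. From 3247 they became 3764 without the dimmest 30%, 4026 with weights and 3595 with the covariate. They were 3635 without the dimmest 50% and 3722 with a trend, and leaving out dim genes also left fewer genes to test. Leaving out 1 array gave 2 to 6 members. Under SNU449 array weights gave 1, and 0 remained without any 1 array. Under PLC, 3 became 1 as deposited or centred, 5 without the dimmest 50% or with a trend, and 7 with weights. Calls over all genes under PLC rose from 904 to 1324 without the dimmest 50% and to 1467 with a trend. The PLC member count became 0 with the replicate block, the covariate, each line by itself, the threshold of 0.01 or the change of 0.5, and 0 to 10 without 1 array. For the mean of the lines, 5 became 2 as deposited, 1 centred, 3 with the mean of all probe sets, 3 with the block, 8 with weights, 1 at 0.01, 0 at 0.5, and 3 to 10 without 1 array. Members differing between lines, 2, became 0 as deposited, with the mean of all probe sets, the block, the threshold of 0.01 or the change of 0.5. They became 1 centred or with the covariate, 6 without the dimmest 50% or with a trend, 8 with weights, and 0 to 10 without 1 array. For the mean of the lines and the interaction, calls over all genes in these fits are not given here. At an absolute difference of 0.5 the control counts of 28, 29 and 27 became 14 for SNU449 against Hep3B, 10 for PLC against Hep3B and 13 for SNU449 against PLC. Without 1 array these were 27 to 28, 24 to 29 and 25 to 28. The member medians as deposited and centred were -0.0152 and 0.0195 (Hep3B), 0.018 and 0.0578 (SNU449), and -0.0498 and -0.0733 (PLC). Without 1 array they ranged from -0.0756 to -0.0531, -0.0468 to -0.0181 and -0.00214 to 0.0398.

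Centred, the control differences of NDUFB5 (0.238), NDUFB8 (0.488) and NDUFA3 (0.823) between PLC and Hep3B turned, as did NDUFS7 (-0.136) and NDUFA11 (-0.601) between SNU449 and PLC. Single other probe sets turned for NDUFA10 under PLC (0.136 and 0.0665), in the mean of the lines (0.0916) and between SNU449 and Hep3B (0.376 and 0.0353), for NDUFA11 under PLC (-0.0689), for NDUFB6 under Hep3B (0.13) and for NDUFB7 under Hep3B (0.195) and in the mean (0.0727). The cause was not tested. As a block, the replicate number gave the counts above and 28, 24 and 26 between controls. Same-numbered arrays correlated best with each other in 4 of 9 cases, which include all 3 PLC pairs (0.0565 to 0.0928), whose member calls are lost with the block. As every correlation was under 0.1, the numbers were taken as names. For the named members, leaving out 1 array kept a knockdown or interaction call in 177 cases and lost it in 75, and kept a line difference in 324 of 324. Over all genes, limma called 51 under SNU449 (504 with weights, 8 with the block) and 904 under PLC (15 with the line by itself, 3215 without siRNA array 2). Array weights and the covariate were added after seeing the data.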
